A study of Mus musculus with 4 samples.

Results

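Acyl-CoA thioesterases and the related amino acid acyltransferases were examined in livers of mice with a mutant Wrn protein and of wild-type mice. The set was defined as 10 genes, the thioesterases Acot1, Acot2, Acot3, Acot4, Acot5, Acot8 and Acot12 and the acyltransferases Acnat1, Acnat2 and Baat. Of these, 9 were found by symbol among the 20909 genes that the authors' deposited table names. Acnat1 was not among its symbols. One row carried the symbol AI132189, which RefSeq lists as a synonym of Acnat1 alone, and its values are given below under the name Acnat1 and kept out of the counts of members. The set was chosen by the log2 ratios of these same arrays, because Acnat2 was steadily lower on them, so all values of these genes are descriptions and carry no test.

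Each of 4 two-colour Agilent arrays carried liver RNA of 1 Wrn mutant mouse and 1 wild-type mouse, labelled as 4 independent pairs. Mice of both genotypes were untreated C57Bl/6 males at 3 months of age, with free access to food under a reversed light cycle (12 h light, 12 h dark). The mutant RNA was in Cy3 in pairs 1 and 2 and in Cy5 in pairs 3 and 4. Which stretch of Wrn the mutation affects is not given in the labels. The measure is the log2 ratio of the channels for each probe, 1 probe per gene, and a log2 ratio of 1 is a 2-fold difference.

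Acyl-CoA thioesterases split an activated fatty acid into the free acid and coenzyme A, and so set how much acyl-CoA a compartment holds. Acot1 works in the cytosol, Acot2 in mitochondria, and Acot3, Acot4 and Acot5 in peroxisomes; these type I enzymes share a protein fold with Baat, Acnat1 and Acnat2, which pass the acyl group to an amino acid instead of water. Baat joins bile acids to taurine or glycine, Acnat1 joins fatty acids to taurine in mouse peroxisomes, and Acnat2 is its close relative. Acot8 of peroxisomes and Acot12, a cytosolic enzyme that acts on acetyl-CoA, are built differently. In mouse liver the type I thioesterases are known targets of the fatty acid sensing receptor PPAR alpha.

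The bases before the start of 4 of these genes are shown, the neighbours Acnat2 and Acnat1, whose ratios differed, and the neighbours Acot4 and Acot3, whose ratios turned together in pair 4. Each line gives 250 bases before the RefSeq start in build GRCm38.p6, read 5′ to 3′ on the gene's strand. Capitals mark the letters AGGTCA, its direct repeat spaced by 1 base with up to 2 mismatches, GTTAAT or CCAAT on either strand; in Acot4 the first lies inside the second.
Acnat2, chr4:49408152-49408401, minus strand: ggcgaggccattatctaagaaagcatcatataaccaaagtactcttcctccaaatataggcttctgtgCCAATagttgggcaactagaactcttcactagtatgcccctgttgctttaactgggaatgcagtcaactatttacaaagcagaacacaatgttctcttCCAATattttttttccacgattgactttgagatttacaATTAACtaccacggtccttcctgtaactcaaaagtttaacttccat
Acnat1, chr4:49451110-49451359, minus strand: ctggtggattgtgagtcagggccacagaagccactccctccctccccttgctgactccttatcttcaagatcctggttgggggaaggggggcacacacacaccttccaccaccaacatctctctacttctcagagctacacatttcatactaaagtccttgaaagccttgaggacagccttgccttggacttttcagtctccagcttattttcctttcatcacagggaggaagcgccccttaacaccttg
Acot4, chr12:84038129-84038378, plus strand: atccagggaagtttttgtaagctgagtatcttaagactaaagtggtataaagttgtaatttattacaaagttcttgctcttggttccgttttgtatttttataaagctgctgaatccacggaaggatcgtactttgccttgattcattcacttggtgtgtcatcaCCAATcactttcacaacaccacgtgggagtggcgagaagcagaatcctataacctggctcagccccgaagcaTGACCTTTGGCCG
Acot3, chr12:84051894-84052143, plus strand: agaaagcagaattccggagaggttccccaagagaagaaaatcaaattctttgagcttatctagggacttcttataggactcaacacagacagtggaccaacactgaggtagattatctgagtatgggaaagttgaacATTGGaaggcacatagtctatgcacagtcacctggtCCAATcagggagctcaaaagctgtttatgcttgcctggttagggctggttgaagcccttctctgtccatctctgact

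RefSeq gave such a window for 9 of the 10 genes and none for Baat, which was therefore not searched. The direct repeat of AGGTCA with 1 base (N) between the copies, which PPAR alpha binds with its partner RXR, was found without mismatch in none of these windows and in 0.0335% of all 32851 RefSeq windows of the same length. With up to 2 mismatches it occurred before Acot4 and Acot12, and in 3.24% of all windows. The Acot4 match lay 13 to 1 bases before the start. The half-site AGGTCA alone was found before Acot4, Acot5 and Acot12, and in 14.0% of all windows. GTTAAT, one arm of the motif of the liver factor HNF1, was found before both RefSeq starts of Acnat2 and in 6.43% of all windows. It was found before no other of the 9 genes searched. CCAAT was found before 7 of the 9 genes and in 33.8% of all windows. The 9 genes had 12 windows, and a gene was counted if any of its windows matched. A count of genes and a share of windows are therefore unlike measures. The HNF4 alpha motif CAAAGTCCA, in 0.384% of all windows, and the HNF1 palindrome (GTTAAT, any 1 base, ATTAAC) with up to 2 mismatches, in 1.24%, were found before none of them. TATAAA, in 12.4% of all windows, was found before Acot4 alone. These matches are letters in a window and do not show binding.

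The numerator of the deposited ratios is not stated. Mutant over wild type is likely, because the sample titles put the mutant first. All 4 columns were taken to run the same way, which is an assumption that was not checked. If the columns of pairs 3 and 4 in fact ran the other way, those values would change sign. If wild type were the numerator on all arrays, every direction given here would be reversed. Over all probes the arrays correlated at 0.063 and 0.123 within a dye orientation and at -0.042 to 0.014 between orientations; for named probes above the median brightness the 6 coefficients ran from 0.153 to 0.371. The points here are probes of the same arrays and not independent. For Wrn itself the probe gave ratios of 1.77, 0.91, 1.12 and 1.37 (log2) in pairs 1 to 4, all above 0, and it is not known whether it lies in the altered part of the gene. A direct check of the labels is therefore not possible with it. With limma and Benjamini-Hochberg adjustment, 0 of 40238 probes (0.0%) passed an adjusted p of 0.05, while 2673 had an unadjusted p under 0.05.

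Acnat2 was lower in the mutant in every pair. Its log2 ratios were -1.23, -0.89, -1.07 and -1.04 in pairs 1 to 4, with a mean of -1.06 ± 0.14 (SD, n = 4), or 2.08-fold lower. The lowest and highest values lay 0.34 apart, and the means of the arrays with the mutant in Cy3 and in Cy5 were -1.06 and -1.05. With the opposite reading of the swapped arrays its mean would be -0.004, so the lower level rests on the columns running the same way. It also rests on the mutant being the numerator, which is likely but not stated. Without any 1 pair the mean lay between -1.11 and -0.998.

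Acnat2 was the only one of the 7 members with 4 values that was lower on all arrays, a direction shared by 10.1% of the 17686 named genes with 4 values. In 23 of those genes, or 0.13%, every ratio was at or below the highest of Acnat2, and 1.43% had a mean as low. An SD as small was seen in 6.16% of them, and a mean as low together with an SD as small in 1 gene, Acnat2 itself, which is 0.00565%. Both limits are its own values, so 1 was the lowest count possible. The probe was bright, with an average log2 intensity of 11.15, above 93.3% of named probes. Among the 707 genes of like brightness the mean log2 ratio ran from -0.54 at the 5th percentile to 0.48 at the 95th, and 9 genes, Acnat2 included, were at or below its value. All of these figures come from the ratios that led to the choice of this gene and are given as a description.

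**Figure D1:**
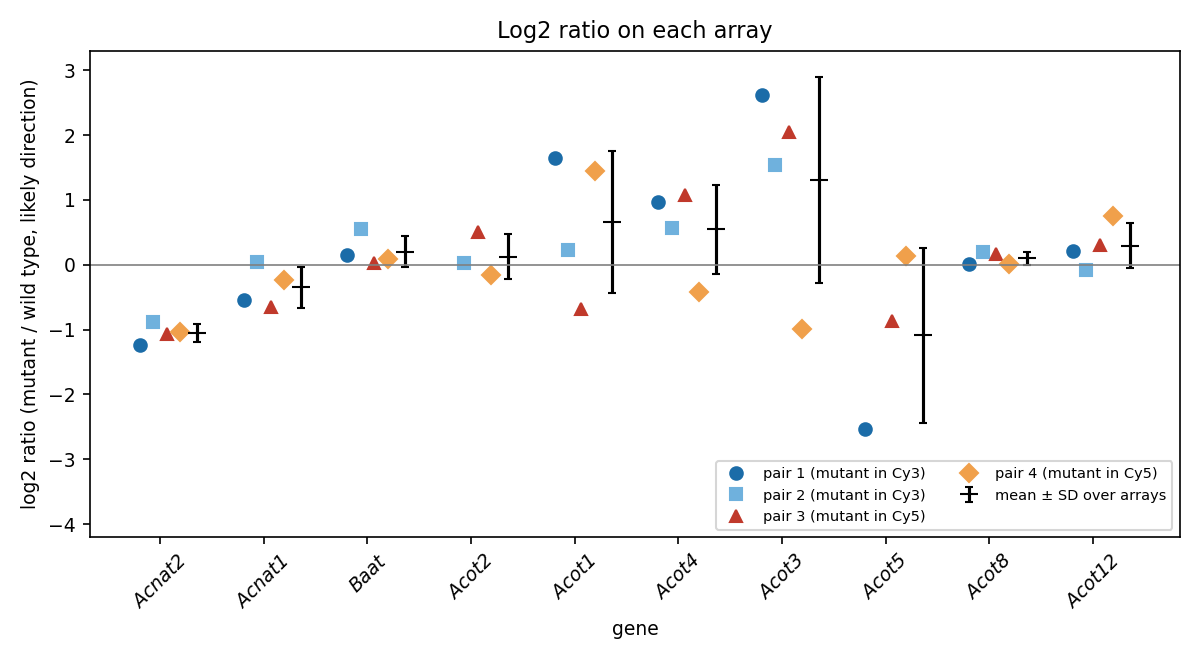
Log2 ratio of mutant over wild type (likely direction) on each array for the 9 members and Acnat1, with symbols for the 4 pairs, colours for the dye orientation and a black mark for the mean with its SD. The 4 values of Acnat2 lie together between -1.23 and -0.89, while those of Acot3 run from -0.99 to 2.61.

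The genes most like Acnat2 over the 4 arrays were found by the Euclidean distance between log2 ratios, among named genes with 4 values. The nearest were Insc at 0.38, Cyp39a1 at 0.40, Aig1 at 0.41, Cxadr at 0.44 and Ptgr1 at 0.46. Their mean log2 ratios were -1.09 ± 0.30, -0.88 ± 0.14, -0.95 ± 0.07, -1.19 ± 0.23 and -1.05 ± 0.33 (SD, n = 4). Cyp39a1 encodes an oxysterol hydroxylase of the liver, Aig1 a hydrolase of fatty acid esters of hydroxy fatty acids, Ptgr1 a prostaglandin reductase, Cxadr a cell adhesion protein that serves as a virus receptor, and Insc an adapter for spindle orientation. Each of the 5 genes was lower in all 4 pairs, which the measure itself favours.

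The genes next to Acnat2 did not share its value. Acnat1 read -0.55, 0.04, -0.65 and -0.23, a mean of -0.35 ± 0.32 (SD, n = 4) that was negative in 3 of 4 pairs and would be 0.095 with the opposite reading of the dye swap. Baat read 0.15, 0.56, 0.02 and 0.09, a mean of 0.20 ± 0.24, and was higher in every pair, as were 10.9% of named genes. Without pair 2 the mean of Baat was 0.085. Acnat2 lay below both on each array: below Acnat1 by 0.68, 0.93, 0.42 and 0.80 log2 units, and below Baat by 1.38, 1.44, 1.09 and 1.12. Such a difference within an array does not depend on how that array was centred. In the reference order Acnat2, Acnat1 and Baat follow each other on chromosome 4. The 2 protein-coding genes before Acnat2 had means of 0.36 ± 0.82 for Cavin4 and -0.54 ± 0.42 for Plppr1 (SD, n = 4). Those after Baat were at -0.44 ± 0.92 for Mrpl50 and 0.42 ± 0.18 for Zfp189. None of these 4 neighbours was as low as Acnat2, as only 1.43% of named genes with 4 values were. This, and its place below Acnat1 and Baat, is favoured by its choice as a steadily lower gene. All 3 probes of the trio were bright, above 93.3% of named probes or more. Probes for Acnat1 and Acnat2, whose sequences are alike, may cross-hybridise, and the probe sequences were not used here.

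**Figure D2:**
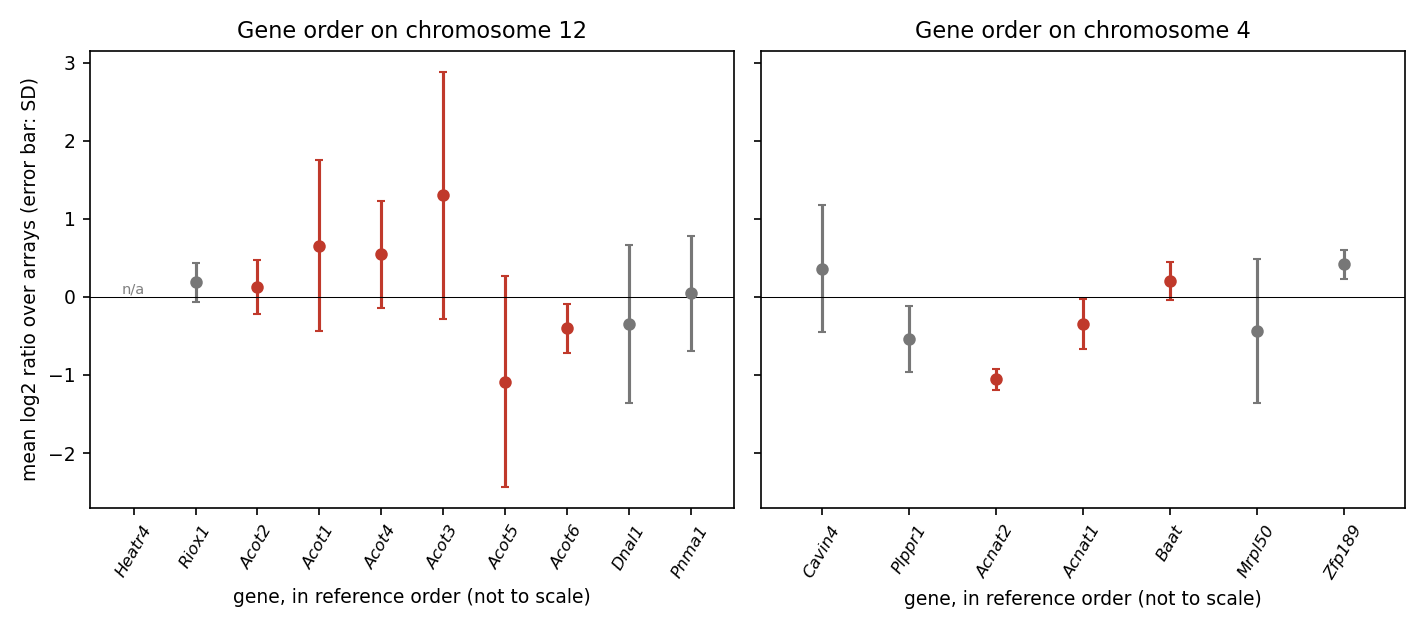
Mean log2 ratio over the arrays (error bars, SD) for the thioesterase cluster on chromosome 12 and the acyltransferase cluster on chromosome 4 (red) and for 2 protein-coding genes on each side (grey), in reference order and not to scale; n/a marks a gene with no named probe. Acnat2 at -1.06 has the shortest error bar of its cluster, and Acot3 at 1.30 and Acot5 at -1.09 stand next to each other with the longest ones on chromosome 12.

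Of the peroxisomal thioesterases of the type I cluster, Acot3 and Acot4 were higher in 3 pairs and lower in pair 4. Acot3, which acts on long-chain acyl-CoA, had log2 ratios of 2.61, 1.55, 2.04 and -0.99, with a mean of 1.30 ± 1.59 (SD, n = 4). Acot4, which acts on succinyl-CoA and related dicarboxylic esters in mouse, had ratios of 0.97, 0.56, 1.08 and -0.42, with a mean of 0.55 ± 0.68. In both genes pairs 1 to 3 lay together and pair 4 alone was below 0. Without pair 4 the mean of Acot3 was 2.07, or 4.19-fold, and that of Acot4 was 0.87, or 1.83-fold, and without pair 1 the mean of Acot3 was 0.87. This sign pattern held for 2 of the 7 members with 4 values and for 6.59% of named genes. An SD at least as large as that of Acot3 was seen in 5.91% of named genes.

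Acot5, a peroxisomal enzyme of medium-chain acyl-CoA, went the other way. It read -2.54, -0.86 and 0.14 in pairs 1, 3 and 4 and had no value in pair 2, so that its mean of -1.09 ± 1.35 (SD, n = 3) rests on 3 pairs. Its probe was the dimmest of the set, at an average log2 intensity of 5.24, above 15.5% of named probes. The mean was -0.36 without pair 1, -1.70 without pair 4, and -1.45 when each dye orientation counted equally. Acot5 lies next to Acot3 in the reference order and was lower than Acot3 in pairs 1 and 3 and higher in pair 4.

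The cytosolic Acot1 and the mitochondrial Acot2 showed no common direction over the pairs. Acot1 read 1.65, 0.23, -0.69 and 1.44, a mean of 0.66 ± 1.09 (SD, n = 4), and it was pair 3, not pair 4, that was below 0. Its mean was 1.10 without pair 3, 0.33 without pair 1 and 0.40 without pair 4. Acot2 read 0.02, 0.51 and -0.16 in pairs 2 to 4, with no value in pair 1 and a mean of 0.12 ± 0.35 (SD, n = 3), which was -0.07 without pair 3 and 0.26 without pair 4. The genes of this cluster are close copies of each other, so their probes may cross-hybridise. The nearest measured genes on either side of the cluster were Riox1 at 0.19 ± 0.25 (SD, n = 4) and Dnal1 at -0.35 ± 1.01 (SD, n = 3).

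Acot8 and Acot12, which lie outside the cluster, had small ratios. Acot8, which acts on a wide range of peroxisomal acyl-CoA esters including those of bile acids, read 0.01, 0.20, 0.17 and 0.01, with a mean of 0.10 ± 0.10 (SD, n = 4). All 4 values were above 0, though pairs 1 and 4 were so close to 0 that centring each array on its median took pair 4 below it, and without pair 2 the mean was 0.065. Acot12, the cytosolic acetyl-CoA hydrolase, read 0.21, -0.08, 0.31 and 0.75, a mean of 0.30 ± 0.34. Pair 4 gave its highest value, where Acot3 and Acot4 had their lowest, and without pair 4 the mean was 0.15. With the opposite reading of the dye swap it would be -0.23.

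In the order of the mean log2 ratio the genes ran from Acot3 through Acot1, Acot4, Acot12, Baat, Acot2, Acot8, Acnat1 and Acnat2 to Acot5. The ranges of mean ± SD of neighbours in this order overlapped, except between Acot8 and Acnat1 and between Acnat1 and Acnat2. The median of the means of the 9 members was 0.20, against 0.04 over all named genes with 4 values. The SD over pairs ran from 0.10 for Acot8 and 0.14 for Acnat2 to 1.59 for Acot3. The order depends on the reading of the dye swap: with the opposite reading the means were 0.78 for Acot3, 0.28 for Acot1, 0.22 for Acot4, 0.15 for Baat, 0.095 for Acnat1, 0.005 for Acot8, -0.004 for Acnat2, -0.11 for Acot2, -0.23 for Acot12 and -0.60 for Acot5.

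**Figure D3:**
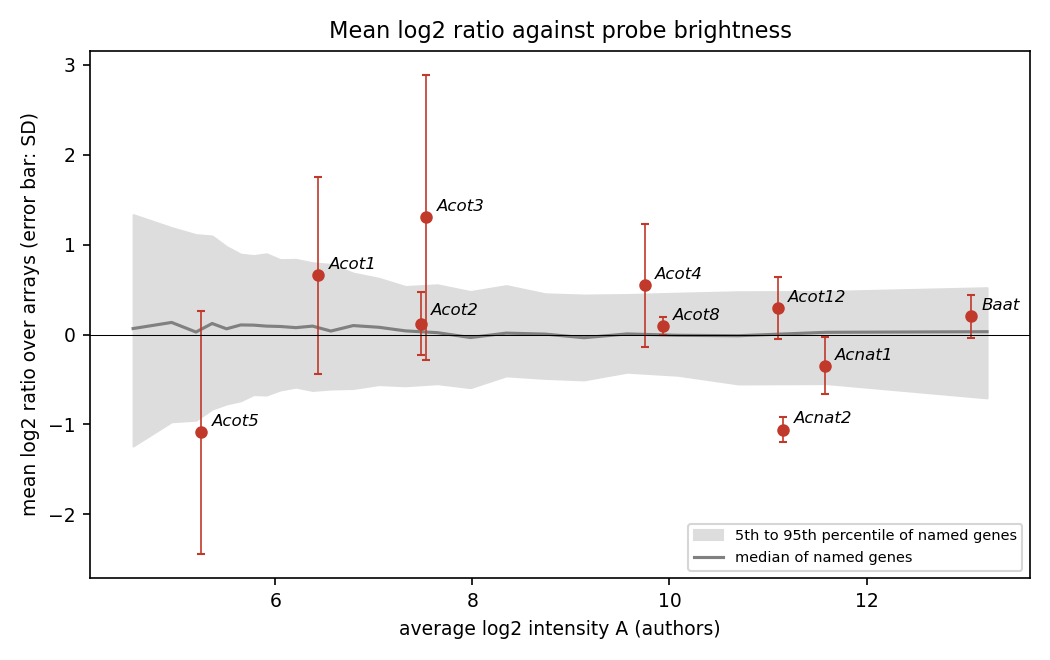
Mean log2 ratio over the arrays (vertical axis; error bars, SD) against the authors' average log2 intensity of the probe (horizontal axis) for the 9 members and Acnat1, with the grey band from the 5th to the 95th percentile of named genes with 4 values. Acnat2, at an intensity of 11.15, lies below the band, and Acot3, at 7.53, above it; Acot4 and Acot5 lie just past its edges.

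The remaining thioesterases and hydrolases of coenzyme A esters gave no gene with 1 sign on all arrays. Of named genes with 4 values, 10.1% were lower and 10.9% higher on all arrays. Of 16 genes, 10 had a negative and 6 a positive mean, and the median was -0.13. That median was -0.026 without pair 4, -0.065 without pair 1 and 0.032 with the opposite reading of the dye swap. Acot6, the last gene of the chromosome 12 cluster, read -0.59, 0.01, -0.32 and -0.70, a mean of -0.40 ± 0.31 (SD, n = 4). Acot13, printed as Them2 and also known as a thioesterase that binds phosphatidylcholine transfer protein, was at -0.37 ± 0.35, and Nudt7, a peroxisomal hydrolase of coenzyme A, at -0.36 ± 0.25. In Acot13 and Nudt7 pairs 1 to 3 were below 0 and pair 4 was not. These 3 genes were chosen after their values were seen.

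The enzymes that make the substrates of the thioesterases were mixed. Of 20 acyl-CoA synthetases found, 18 had 4 values, of which 3 were lower and 3 higher in every pair. The shares among named genes with 4 values were 10.1% and 10.9%. The median of the synthetases was -0.003, with values from -0.056 to 0.06 when 1 pair was left out. Acsl1, the main long-chain synthetase of liver and a PPAR alpha target, read 1.24, 0.77, 1.08 and 0.35, with a mean of 0.86 ± 0.39 (SD, n = 4). Acsl4, which prefers arachidonic acid, read -0.71, -0.84, -0.54 and -0.83, with a mean of -0.73 ± 0.14. Every value of Acsl1 lay above every value of Acsl4, which follows from their opposite signs and the rule of 1 sign for naming. Acsl3 was at -0.78 ± 0.82 and the dim medium-chain gene Acsm2 at 1.20 ± 1.47, the first led by pair 4 and the second by pair 1.

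Among acyltransferases that act on the same pool none passed the limma test, which none of the 40238 probes passed. Of 11 carnitine and glycine acyltransferase and transport genes, 9 had a positive mean. In every pair 5 were higher and 1 lower, against 10.9% and 10.1% of named genes with 4 values. Their median was 0.41, or 0.028 with the opposite reading of the dye swap. Crot, the peroxisomal carnitine octanoyltransferase, was at 0.77 ± 0.33 (SD, n = 4), the carnitine transporter gene Slc22a5 at 0.55 ± 0.29 and Cml4 (now Nat8), an N-acetyltransferase, at 0.75 ± 0.38. Glyat, which joins glycine to acyl groups such as benzoyl as Baat does to bile acids, read -0.23, -0.11, 0.38 and 0.27, and was singled out after its values were seen.

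Peroxisomal beta-oxidation and transport genes formed the longest list. Of 22 genes with 4 values, 10 were higher and 2 lower in every pair, against 10.9% and 10.1% of such named genes. The median was 0.38, which became -0.025 with the opposite reading of the dye swap. Without any 1 pair it lay between 0.285 and 0.315. The thiolase genes Acaa1a and Acaa1b were at 1.16 ± 0.76 and 1.17 ± 0.71 (SD, n = 4), with pair 4 the lowest at 0.13 and 0.18; as near-identical copies they may cross-hybridise. Abcd2, a peroxisomal transporter of very long-chain acyl-CoA, was at 1.14 ± 0.82, and Ech1, an auxiliary isomerase of beta-oxidation, at 0.62 ± 0.21. Of 14 genes for the synthesis and binding of coenzyme A esters, 5 were higher and 0 lower in every pair, with a median of 0.22 that was 0.15 without pair 4 and 0.064 with the opposite reading. The fatty acid binding protein gene Fabp2, higher in every pair, was at 0.86 ± 0.27.

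Of 13 genes of bile acid synthesis, which supplies the substrates of Baat, 5 were higher and 1 lower in every pair. The shares among named genes with 4 values were 10.9% and 10.1%. These 13 genes had a median of 0.05. That median was 0.118 without pair 1, 0.145 without pair 3, 0.075 without pair 2 and -0.059 with the opposite reading. The lists share genes: Amacr, Acox2, Hsd17b4 and Scp2 were also counted as peroxisomal genes, and Slc27a5 as an acyl-CoA synthetase. Amacr and Hsd17b4 were thus among the genes higher in every pair in both lists. Cyp7a1, the rate-limiting enzyme of that synthesis, was at 0.79 ± 0.65 (SD, n = 4) and at 0.02 in pair 4. Among 12 regulators, 4 were higher and 1 lower in every pair, with a median of 0.32, or -0.056 with the opposite reading. Nr1i3, the receptor CAR, was at 0.73 ± 0.17 and Pparg at 0.89 ± 0.73. Ppara itself, singled out after its value was seen, read 1.06, -0.40, 0.22 and 0.70.

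Over the 7 lists, with each gene counted once, 30 of 101 genes with 4 values (29.7%) were higher in every pair and 8 (7.92%) lower. Among all named genes with 4 values the shares were 10.9% and 10.1%. Probes brighter than the median of named probes made up 29 of the 30 and 7 of the 8. Shares among named genes of like brightness were not computed. With the opposite reading of the dye swap the counts of 30 and 8 became 6 and 4. None of the 103 genes found passed the limma test over all probes, where 0 of 40238 passed. Their lowest adjusted p, 0.736, was also the lowest over all probes. An unadjusted limma p under 0.05 was seen in 20 of the 103, against 2673 of all 40238 probes. A separate limma fit of named probes brighter than the median gave 1579 of 10414. Of the 103 genes, 0 were among the 42 probes (0.206% of 20379 named probes) that passed when the prior variance followed intensity. The pattern of Acot3 and Acot4, above 0 in pairs 1 to 3 and below 0 in pair 4, was shared by 10 of the 101 genes (9.9%), against 6.59% of named genes. Among them, chosen for that pattern, were the peroxisomal bifunctional enzyme gene Ehhadh at 1.02, 1.18, 1.08 and -0.63, the carnitine acetyltransferase gene Crat at 0.67, 0.68, 1.45 and -0.25, and the pantetheinase gene Vnn1 at 1.44, 0.76, 1.62 and -0.08.

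**Figure D4:**
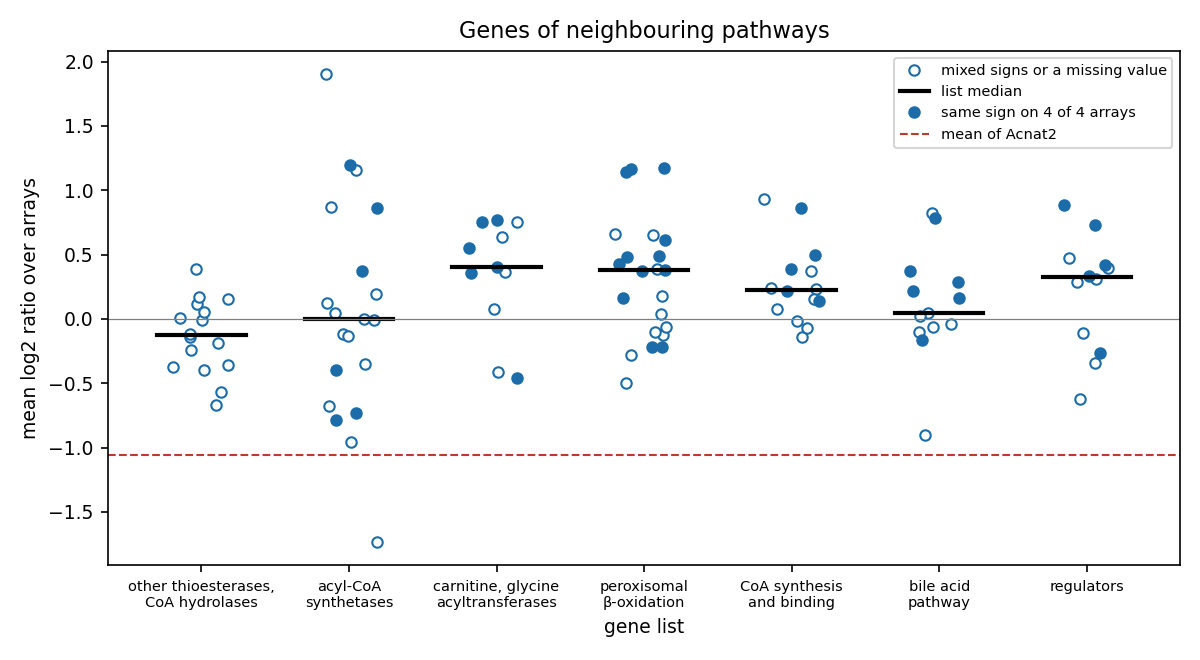
Mean log2 ratio over the arrays for each gene of the 7 neighbouring pathway lists, with filled points for genes of 1 sign on 4 of 4 arrays, bars for list medians and a dashed line for Acnat2. List medians run from -0.13 for the other thioesterases to 0.41 for the carnitine and glycine acyltransferases (0.032 and 0.028 with the opposite reading of the dye swap), and 1 gene, the dim Slc27a2 at -1.73 with 3 values, lies below Acnat2.

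**Figure D5:**
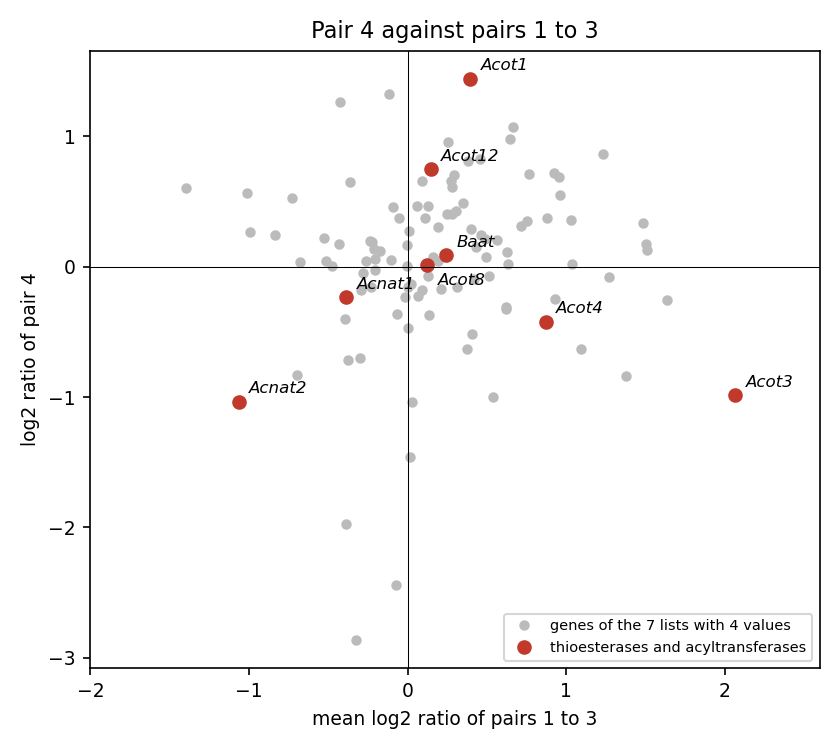
Log2 ratio in pair 4 (vertical) against the mean log2 ratio of pairs 1 to 3 (horizontal) for members and Acnat1 (red) and for genes of the 7 lists with 4 values (grey). Acnat2 lies at -1.06 and -1.04, while Acot3 lies at 2.07 and -0.99.

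Liver tissue holds several cell types, and in such samples fewer cells of a type and less RNA per cell cannot be told apart. Of 12 hepatocyte markers, 7 had a negative mean, and 3 were lower and 1 higher in every pair. Among named genes with 4 values, 10.1% were lower and 10.9% higher in every pair. The hepatocyte markers had a median of -0.07 and pair medians of 0.11, 0.24, -0.18 and -0.02. Acnat2 lay below all 4 of these pair medians, which follows from its choice as a steadily lower gene. Kupffer cell and macrophage markers had a positive mean in 12 of 12 genes, with pair medians of 0.78, 1.01, -0.22 and 0.98, and cholangiocyte markers a negative mean in 7 of 8, with pair medians of -0.56, -0.45, -0.34 and -0.33. Sinusoidal endothelial markers had a positive mean in 9 of 10 genes with a median of 0.45, B cell markers in 6 of 6 with 0.89, adipocyte markers in 5 of 6 with 0.26 and stellate cell markers in 3 of 7 with -0.11. Of 5 kidney tubule markers found, 1 had a positive mean, with a median of -0.34. Over all named genes with 4 values the median of the means was 0.04, and the share with a positive mean was not computed. The part of these cell types in the values of the thioesterases and acyltransferases was not tested.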

How the data were processed

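Per the file headers, the value table the authors deposited holds a log2 ratio for each of 41174 probes on each array. Their deposited gene table, which names 20909 genes with 1 probe per printed symbol, gives the average log2 intensity A, used here, and a fold change and p-value, not used for results. The submitters' processing notes name limma, without a version; background correction, normalization and filters are not stated in any source used here. Members were matched by printed symbol. Genes of the companion and marker lists were matched by the current symbol of their RefSeq accession (17280 of 17813 accessions had one) and otherwise by printed symbol.

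Probes with 3 or 4 values entered lmFit and eBayes (limma 3.58.1, R 4.3.3) with a genotype and a dye term, leaving 2 residual degrees of freedom. P-values were adjusted by Benjamini-Hochberg over 40238 probes, with a threshold of 0.05. Mean ± SD is over pairs with a value; Acot2 and Acot5 lack 1 value each. The number of arrays, 4, limits the precision. With the dye term, p-values rest on the spread between pairs of the same dye orientation, moderated over probes. They cover these 4 pairs only.

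Members and lists were chosen with earlier results of these data known. The rule for names took all members, in each companion list up to 4 genes by smallest unadjusted p among those with 4 values of 1 sign and an absolute mean over 0.5, the 5 genes nearest to Acnat2, and Wrn; other genes are named as neighbours or as chosen after their values were seen. Results that need an item withheld for evaluation are not reported here. Windows of 250 bases before RefSeq starts (GRCm38.p6) were searched for motifs on both strands. Alternatives were centring, scaling, leaving out a pair, the median over arrays, no dye term, other variance priors, subsets of probes, another threshold and the opposite reading of the dye swap.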

Additional observations from a re-analysis of the deposited data

Results flagged for a closer look

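Among 44 results compared over the 4 arrays, 2 had a single array well apart from the rest, and at 1 in 20 about 2.2 would be so by chance. Missing values numbered 3547 in pair 1 and between 1070 and 1195 in pairs 2 to 4; Acot2 is among the genes without a value in pair 1. The median log2 ratio of the regulators was 0.066 in pair 3, against 0.38 to 0.44 in the other pairs.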

How the results depend on the processing

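With the opposite reading of the dye swap, Acnat2 had a mean log2 ratio of -0.004, 0 members were lower and 0 higher on all arrays, and 4 companion genes were lower and 6 higher; the means of Acnat1, Acot2 and Acot12 and the list medians of the other thioesterases, peroxisomal beta-oxidation, bile acid genes and regulators changed sign; the cause was not tested, and the sign turn is built into that reading. Leaving out 1 pair left the mean of Acnat2 between -1.11 and -0.998, 1 member lower, 2 to 4 members higher, 9 to 21 companion genes lower and 32 to 40 higher on all remaining arrays, where fewer arrays have to share a sign; the ends of 4 and 21 came without pair 4. Centring the arrays left 1 member higher on all arrays. The count of probes passing an adjusted p of 0.05 was 0 over all probes, 42 with an intensity trend over named probes, 1 over named probes brighter than the median, and 0 in the other 12 fits. Of 190 values under an alternative, 163 stayed within the spread between arrays or within 1.5 times the count. For the mean of a gene, leaving out 1 pair cannot move it by as much as the SD over its pairs. Those values therefore stayed within the spread by construction, and the count of 163 is no measure of stability. Equal weight for each dye orientation, chosen after the missing values were seen, moved Acot5 from -1.09 to -1.45 and Acot2 from 0.12 to 0.097. Signal over background was not analysed here.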
